A study of Mus musculus with 4 samples.

Results

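A set of 10 long noncoding RNAs, most of them known as nuclear transcripts of the brain, were followed through single nuclei of the mouse hippocampus. Malat1, Neat1, Meg3, Miat, Rian, Mirg, Snhg11, Snhg14, Gm26917 and Gm42418 were taken by symbol, which gave 10 members of the 32285 genes in the files, each with 1 row. The members were selected on their names and on earlier results of these data, the measured value among these being the percent of UMIs taken by Malat1, which was larger in both knock-in libraries. Malat1 between genotypes is therefore described here with no test. The rule that chose the members names no difference between cell classes.

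The nuclei came from wild-type (WT) mice and from littermates carrying 1 mutant copy of Cyfip2 (Cyfip2+/R87C, knock-in, KI) on a C57BL/6N background, and the labels name no agent given to either group. The study took all of them in adulthood, at an age when KI mice had recurrent seizures. Cyfip2 encodes a subunit of the complex that drives branched actin assembly, and the R87C change models an infantile epileptic encephalopathy known as West syndrome. Each of the 4 libraries held nuclei of the hippocampi of 1 mouse, with 2 libraries per genotype, so that every difference between genotypes rests on 2 mice against 2. The study used both sexes, and the labels do not give the sex of each mouse. A label of KI replicate 2 reads R88C where that of KI replicate 1 reads R87C, while both samples carry the same genotype label.

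Most of these RNAs are retained in the nucleus after transcription. Malat1 collects in nuclear speckles, which store splicing factors, and Neat1 is the scaffold of paraspeckles, bodies that hold RNA-binding proteins and edited RNAs. Meg3, Rian and Mirg are expressed from the maternal copy of the imprinted Dlk1-Dio3 locus and carry small RNAs in their introns and exons, Snhg14 runs from the Prader-Willi region over Ube3a on the paternal copy in neurons, Snhg11 hosts small nucleolar RNAs, and Miat binds splicing factors. Gm26917 and Gm42418 are neighbouring predicted genes in which reads resembling ribosomal RNA are often counted.

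By the annotation of GRCm38 (GENCODE M21), Malat1 (ENSMUSG00000092341) lies at chr19:5795690-5802672 on the minus strand and consists of a single exon of 6.98 kb. Neat1 (ENSMUSG00000092274) lies 22.0 kb away on the same strand, upstream of Malat1 at chr19:5824708-5845478, and has 20.8 kb of exon. Meg3 (ENSMUSG00000021268, chr12:109541001-109571726), Rian (ENSMUSG00000097451, chr12:109603940-109661716) and Mirg (ENSMUSG00000097391, chr12:109729764-109749460) follow each other on the plus strand with gaps of 32.2 kb and 68.0 kb. These 3 genes hold 2, 4 and 14 annotated miRNA genes on the same strand, so that part of what is transcribed there leaves the host RNA. Miat (ENSMUSG00000097767) lies at chr5:112213228-112229395 on the minus strand, and Snhg11 (ENSMUSG00000044349, annotated as protein coding) at chr2:158375638-158386145 on the plus strand. Snhg14 (ENSMUSG00000100826, chr7:59307924-59975759, minus strand) overlaps 213 annotated genes, of which 2 are on the opposite strand. Gm26917 (ENSMUSG00000097971, chr17:39843013-39846341, plus strand) and Gm42418 (ENSMUSG00000098178, chr17:39846958-39848788, plus strand) are 0.616 kb apart. Gm42418 overlaps AY036118 and CT010467.1, both on the opposite strand and the latter annotated as rRNA, so that its reads and theirs could not be told apart if strand was not used in counting.

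Libraries of this kind are primed with oligo-dT, and long runs of A inside a nuclear RNA can be primed as well as a tail. This matters for Malat1 in particular, since its mature 3′ end is cut by RNase P and carries no poly(A) tail. Runs of at least 8 A were present in 9 of the 80 annotated transcripts of the members, belonging to 5 of the 10 genes, against 13.8% of all 141767 transcripts of the annotation. The longest run of each of the 5 genes is shown with its flanks, read in the direction of the transcript, with the run in capitals.
Malat1: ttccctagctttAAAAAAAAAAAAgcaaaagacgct
Meg3: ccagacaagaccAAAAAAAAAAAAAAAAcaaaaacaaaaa
Rian: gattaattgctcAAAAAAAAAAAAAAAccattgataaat
Snhg11: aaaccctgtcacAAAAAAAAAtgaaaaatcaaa
Snhg14: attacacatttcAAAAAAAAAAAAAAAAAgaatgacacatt
The Malat1 stretch lies at chr19:5795976-5796011 on the minus strand of GRCm38, and its run of 12 A ends 298 bases before the annotated 3′ end. That of Snhg11 ends 27 bases before the end of its transcript, while those of Meg3, Rian and Snhg14 end 14113, 2766 and 6597 bases before the ends of theirs. Where reads started was not tested, since the files hold counts per gene only.

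The promoter of Meg3 is shown because Meg3, Rian and Mirg, which are thought to be transcribed in common, moved together across classes in the results that follow. The RefSeq window of 300 bases at chr12:109540746-109541045 (GRCm38.p6, plus strand) holds the letters TGACGTCA, a full cyclic AMP response element, and TATAAA on both strands, which overlap. These letters are in capitals.
Meg3 promoter: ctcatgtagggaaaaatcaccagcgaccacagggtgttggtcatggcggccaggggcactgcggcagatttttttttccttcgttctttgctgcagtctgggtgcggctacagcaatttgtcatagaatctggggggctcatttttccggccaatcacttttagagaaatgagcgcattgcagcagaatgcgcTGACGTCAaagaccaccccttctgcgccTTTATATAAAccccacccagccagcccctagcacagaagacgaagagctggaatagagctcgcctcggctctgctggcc
TGACGTCA was found in 1.79% and TATAAA on either strand in 13.6% of the 32851 promoter windows of the same table. A window was given for 7 members, and of these this window alone held either motif.

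The 4 libraries held 12665 to 16055 barcodes and 73009975 to 80913580 UMIs (unique molecular identifiers, each a counted molecule). After removal of barcodes with fewer than 500 genes or at least 5% mitochondrial UMIs and of likely doublets, 11932 to 14927 nuclei per library and 52032 in all were kept, with a median of 3868 to 4699 UMIs each. Nuclei were assigned to a class when at least 2 of its marker genes were raised, which placed 41.4% of the nuclei. Of the assigned nuclei 57.0% had exactly 2 raised markers, so each class is a range of marker content and not a sharp set. This held above all for DG granule (85.9%), CA1 (87.5%), CA2 (90.6%), CA3 (87.0%) and fibroblast nuclei (80.9%), against 27.3% of astrocytes and 23.8% of OPC. A class name stands for nuclei that are like that cell type by these markers. There were 12 classes with at least 20 nuclei in every library, which were tested. They were granule neurons of the dentate gyrus (DG), CA1, CA2 and CA3 pyramidal neurons, subicular or cortical excitatory neurons, inhibitory neurons, astrocytes, oligodendrocytes, oligodendrocyte precursors (OPC), microglia, mural cells and fibroblasts. All 28 markers set aside for checking the tested classes were higher in their own class than over all nuclei, 26 of them at least 2 times higher. The other 2 were the check markers of CA1 pyramidal neurons, Pou3f1 and Spink8, at 1.61 and 1.62 times. Per 10000 UMIs, however, the median nucleus of 5 tested classes held more of the gate markers of all other classes together than of its own, at 18.3 against 18.0 in DG granule, 38.9 against 4.07 in CA2, 27.6 against 13.5 in CA3, 29.4 against 27.8 in mural and 37.7 against 19.0 in fibroblast nuclei. Values for single libraries are given throughout in the order WT replicate 1, WT replicate 2, KI replicate 1 and KI replicate 2, as a percent of all UMIs of the nuclei concerned.

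Both KI libraries stood apart in ways that touch the members. KI replicate 1 had a Gm26917 share of 0.109% against 0.0137% and 0.0128% in WT and 0.0126% in KI replicate 2. In KI replicate 2 the nuclei assigned to oligodendrocytes had 352 counts scaled to a common depth (CPM) of oligodendrocyte check markers, against 772, 851 and 720 CPM in the other libraries. They also had 584 CPM of subicular or cortical excitatory markers, against 154 to 271 CPM in the others.

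Malat1 took the largest share of the members in every library. Its shares were 8.90%, 8.71%, 13.7% and 12.2%, so that WT had a mean of 8.81% ± 0.132 and KI one of 12.9% ± 1.07 (SD over 2 libraries each). The genotypes did not overlap. The difference of 4.10 percentage points, or a ratio of 1.47, is the value that the choice of the set had used. All 10 members together made up 10.3%, 10.1%, 15.4% and 13.6% of UMIs. In the barcodes removed by the limits on genes and mitochondrial UMIs, 74 to 110 per library, the Malat1 share was 5.67%, 8.03%, 11.1% and 11.4%. These barcodes come from the same 4 libraries that the choice had used and are no separate evidence.

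By class, the Malat1 share of the 2 KI libraries lay above that of both WT libraries in 10 of 12 classes, and the ratio of KI to WT means ranged from 0.977 to 1.87 with a median of 1.36. DG granule neurons gave the highest ratio, with shares of 7.92%, 8.03%, 16.5% and 13.4%. OPC followed with 8.11%, 7.78%, 12.9% and 11%, a ratio of 1.5. In CA1 pyramidal neurons the shares were 8.49%, 8.25%, 13.1% and 11%. Neuronal and glial classes thus both showed the separation of the libraries. In oligodendrocytes, with 10.7%, 11.1%, 15.0% and 12.1%, and in astrocytes, with 10.7%, 11.7%, 14.8% and 13.1%, the ratios of 1.24 and 1.25 were smaller. CA2 pyramidal neurons (9.46%, 12.2%, 13.5% and 12.1%) and mural cells (16.3%, 12.3%, 13.8% and 14.1%) were the classes in which the genotypes overlapped. Both are small classes, with 170 and 114 nuclei, but fibroblasts, with 152, did not overlap. Nuclei that no class claimed had 8.95%, 8.71%, 14.1% and 12.5%, close to the values over all nuclei.

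**Figure D1:**
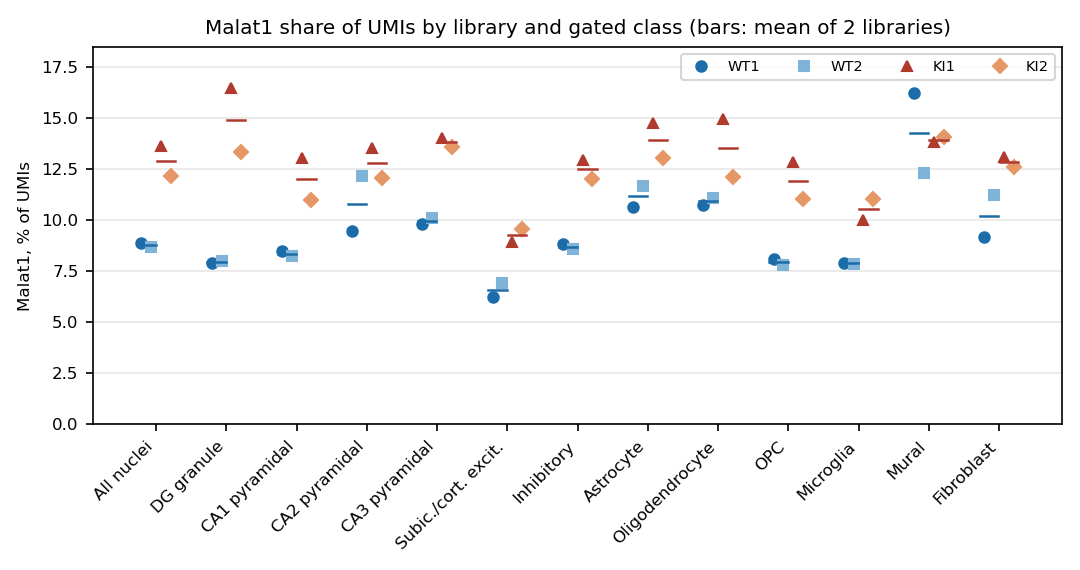
Malat1 as a percent of UMIs (vertical axis) over all nuclei and in the 12 tested classes (horizontal axis), with a point for each library and a dash for the mean of the 2 libraries of a genotype. Both KI points lie above both WT points in 10 classes, and overlap with WT in CA2 pyramidal neurons and mural cells.

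Ordered by the mean of the 4 libraries, mural cells had the highest Malat1 share (14.1% ± 1.62, SD, n = 4), followed by astrocytes (12.6% ± 1.78) and oligodendrocytes (12.2% ± 1.91), and the lowest was in subicular or cortical excitatory neurons (7.91% ± 1.61). Between the ends of this order lay CA3, CA2, fibroblasts, DG granule neurons, inhibitory neurons, CA1, OPC and microglia, from 11.9% down to 9.21%. Each class overlapped with the next in the order in its range over libraries. The highest mean was 1.79 times the lowest, the narrowest span of class means among the members.

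Every nucleus that was kept had Malat1 UMIs. The median share per nucleus was 9.01%, 8.61%, 13.9% and 11.7%, with 5th percentiles of 4.71%, 4.27%, 6.68% and 5.68% and 95th percentiles of 15.1%, 15.5%, 22.0% and 20.3%. The whole distribution, from its low to its high end, was therefore placed higher in the KI libraries. In DG granule neurons the medians were 8.08%, 8.10%, 16.7% and 13.3%, and the 5th percentile of KI replicate 1 (11.1%) lay above the WT medians. The standard deviation over nuclei was 6.05, 7.15, 7.54 and 8.18 times what counting error alone gives. Over classes and libraries this ratio had a median of 6.49 for Malat1, followed by 2.13 for Gm42418 and 2.12 for Meg3, and of 1.0 for Mirg.

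Shares per nucleus went with depth in part. Ranked by UMIs and cut into 4 equal bins, nuclei of the lowest bin had a Malat1 share of 10.6%, 10.4%, 14.3% and 12.2%, and those of the highest bin 8.59%, 8.55%, 13.2% and 12.1%. Both KI libraries lay above both WT libraries in either bin. A larger Malat1 share lowers the share of every other gene in the same nuclei, so the fits that follow scale by trimmed means (TMM) and not by totals, and the other scaling is given where it matters.

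**Figure D2:**
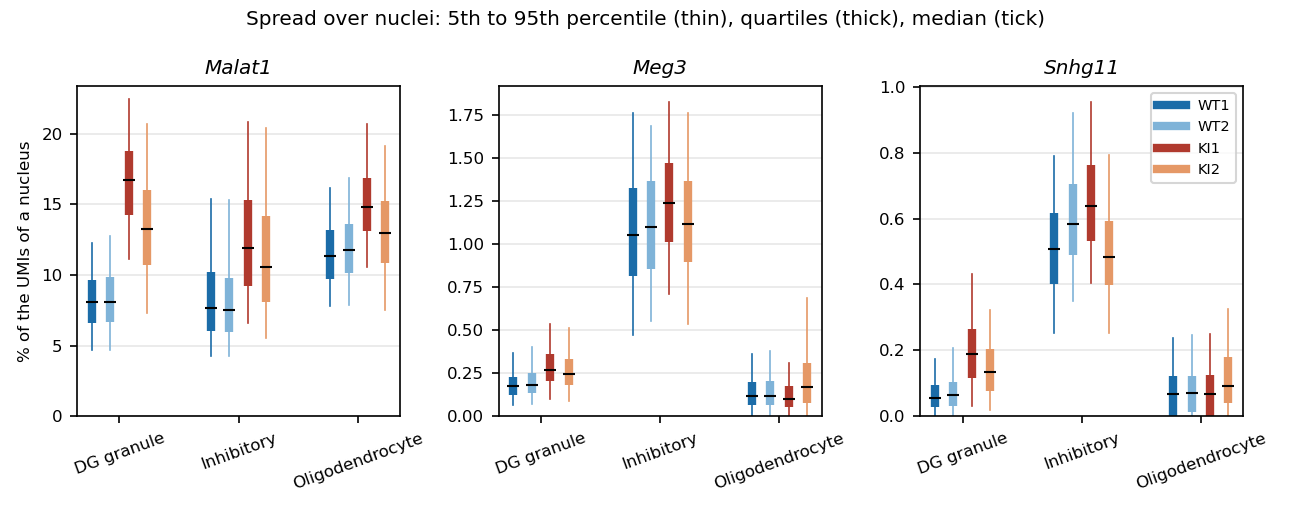
Share of UMIs per nucleus (vertical axis, percent) of Malat1, Meg3 and Snhg11 in DG granule neurons, inhibitory neurons and oligodendrocytes, by library. Lines run from the 5th to the 95th percentile, boxes cover the quartiles and the mark is the median, which for Malat1 in DG granule neurons is 8.08% and 8.10% in WT against 16.7% and 13.3% in KI.

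Per kb of exon, Malat1 had 15548 CPM over the 4 libraries, Gm42418 1707 CPM, Meg3 373 CPM and Snhg11 359 CPM. Gm26917 followed with 111 CPM per kb, and then Snhg14 (32.0), Miat (26.8), Rian (23.2), Mirg (11.8) and Neat1 (3.8 CPM per kb). Malat1 was thus by far the most abundant member on this scale. The label of the set as abundant fits Malat1, Meg3, Snhg11 and Gm42418, while Neat1 and Mirg had 79.0 and 86.4 CPM before any scaling by length. Because molecules were counted from their 3′ ends, a level per length is only a rough scale between genes.

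Whether the members differ between cell classes was asked with sums of UMIs per library and class, in which each library was its own block. Neurons had more of 7 members and less of 2 than non-neuronal classes at an adjusted p under 0.05 (quasi-likelihood test of edgeR, p-values adjusted by Benjamini-Hochberg over all genes). Of all 15002 genes tested, 31.6% were called higher and 19.8% lower in neurons, and the median log2 difference was 1.38 over the members against 0.09 over all genes. Scaled by library totals, 2252 genes were higher and 5761 lower in place of 4735 and 2972, and the median over all genes moved from 0.09 to -0.27. With totals 6 members were higher, since Gm26917 lost its call (0.04, adjusted p = 0.807 by edgeR). The members higher in neurons are described first.

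Meg3, which is known as a growth-restraining RNA and is transcribed at high levels in neurons, was ordered by class without overlap at the top. Inhibitory neurons had 1.11%, 1.13%, 1.25% and 1.17% of UMIs, and subicular or cortical excitatory neurons 1.01%, 0.942%, 1.1% and 0.955%. CA1 pyramidal neurons followed with 0.803%, 0.855%, 0.861% and 0.808%, and CA3 with 0.777%, 0.768%, 0.687% and 0.631%. The ranges of these 4 classes did not overlap with each other, while that of CA3 overlapped with the next class, fibroblasts. DG granule neurons lay far below the other neurons, with 0.183%, 0.211%, 0.285% and 0.267%, overlapping with OPC (0.215%, 0.186%, 0.285% and 0.312%). Astrocytes were lowest, with 0.138%, 0.157%, 0.143% and 0.134%. The log2 difference of neurons against non-neuronal classes was 1.63 ± 0.11 (SE), with an adjusted p of 6.71e-17 by the edgeR quasi-likelihood test.

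Rian and Mirg, which lie downstream of Meg3 in the same imprinted cluster, followed a similar order of classes at lower levels, with exchanges among neighbours such as DG granule neurons and OPC. Rian had 0.0759%, 0.0766%, 0.0759% and 0.0624% in inhibitory neurons and 0.0168%, 0.0186%, 0.0215% and 0.0182% in DG granule neurons. Mirg, the host of a large miRNA cluster, had 0.0177%, 0.0183%, 0.0146% and 0.0148% in inhibitory neurons and 0.00264%, 0.00318%, 0.00383% and 0.00420% in DG granule neurons. In neither RNA did the ranges of inhibitory and granule neurons overlap. Over all nuclei there were 14.7, 15.1, 16.5 and 17.4 Meg3 UMIs for each Rian UMI, and 4.79, 4.80, 5.37 and 4.68 Rian UMIs for each Mirg UMI. Against non-neuronal classes, Rian was higher by 1.46 ± 0.08 and Mirg by 1.53 ± 0.12 (log2, SE). Among the protein-coding genes of the cluster that were fixed as a list, 2 of 3 tested were higher in neurons (Rtl1, a retrotransposon-derived gene, by 1.65, and Begain, a synaptic protein, by 0.78 on the log2 scale) and none was lower.

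Snhg11, a host of small nucleolar RNAs, also differed among neurons. Inhibitory neurons had 0.493%, 0.583%, 0.617% and 0.478%, CA1 pyramidal neurons 0.329%, 0.358%, 0.381% and 0.344%, and DG granule neurons 0.0630%, 0.0739%, 0.196% and 0.146%. The granule neurons of WT thus lay at or just under the values of astrocytes (0.0727%, 0.0874%, 0.0892% and 0.0818%). Over all neurons Snhg11 was higher than in non-neuronal classes by 1.53 ± 0.10 (log2, SE; adjusted p = 6.56e-18, edgeR quasi-likelihood).

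Snhg14, the long transcript that includes the antisense RNA of Ube3a, was more even among neurons. Its share was 0.106%, 0.107%, 0.126% and 0.120% in inhibitory neurons and 0.0676%, 0.0668%, 0.0787% and 0.0777% in DG granule neurons, against 0.0231%, 0.0212%, 0.0303% and 0.0248% in astrocytes. The log2 difference between neurons and the other classes was 1.49 ± 0.09 (SE). Of 3 tested coding genes of this imprinted locus, Ube3a, a ubiquitin ligase, was higher in neurons by 1.49 and Snrpn, a splicing protein, by 0.84, while Ndn, a growth regulator, fell by 0.65 on the log2 scale. Counts per gene do not tell the parental copies apart.

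Miat differed from the other neuronal members in the class where it was highest. CA1 pyramidal neurons had 0.0306%, 0.0296%, 0.0347% and 0.0330% and DG granule neurons 0.0281%, 0.0292%, 0.0226% and 0.0231%, whereas inhibitory neurons, at 0.0107%, 0.0125%, 0.0124% and 0.0117%, were in the range of OPC. Miat was still higher in neurons overall by 1.31 ± 0.08 (log2, SE). Of 3 tested factors known to bind Miat, 1 was higher in neurons, the splicing regulator Celf3, by 1.14. This count is near the 31.6% of all genes called higher. The median of the 3 factors was -0.06 against 0.09 over all genes.

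Non-neuronal nuclei held UMIs of the neuronal members, and free RNA in the droplets reaches every nucleus. Summed inhibitory check markers in non-neuronal classes reached 0% to 26.5% of their level in inhibitory neurons, with a median of 8.08% over classes and libraries. Meg3 reached 10.6% to 61.1% (median 20.1%), Snhg11 13.8% to 57.9% (21.8%) and Snhg14 19.1% to 78.7% (33.0%). How much of the members' counts in glia was carried over was not tested.

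Neat1 was the member with the greatest difference between classes, in the opposite direction. Oligodendrocytes had 0.0727%, 0.0789%, 0.134% and 0.0326%, and fibroblasts 0.0193%, 0.0568%, 0.0175% and 0.0574%. Astrocytes (0.0182%, 0.0178%, 0.0235% and 0.0368%) and microglia (0.0161%, 0.0215%, 0.0418% and 0.0138%) came next. In every neuronal class the mean of the 4 libraries was 0.00268% or lower, with 0.000940% in CA3 pyramidal neurons, so that the mean of oligodendrocytes (0.0796% ± 0.0419, SD, n = 4) was 84.7 times that of CA3. The log2 difference of neurons against the other classes was -3.38 ± 0.25 (SE; adjusted p = 3.55e-16, edgeR quasi-likelihood), and -3.31 without KI replicate 2. The level in neurons was 0.808% to 9.96% of that in oligodendrocytes (median 1.85%), and oligodendrocyte check markers in the same nuclei were at 0.664% to 4.29% (median 1.40%) of theirs. The ranges overlap.

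At the level of single nuclei, 68.0%, 73.4%, 84.4% and 66.4% of oligodendrocytes had a Neat1 UMI. At 1000 UMIs per nucleus, which left out 6.46% to 11.9% of these nuclei, the shares were 51.9%, 55.9%, 71.4% and 34.4%. In CA3 pyramidal neurons 3.98% to 11.3% of nuclei had a Neat1 UMI and 0% to 1.36% after thinning. Malat1, which is transcribed next to Neat1, did not follow this pattern. There were 148, 141, 111 and 372 Malat1 UMIs for each Neat1 UMI in oligodendrocytes, against 1071 to 2245 over all nuclei. Among 5 tested coding neighbours of the pair, 3 were lower in neurons, with log2 differences of -1.82 for Frmd8, -1.45 for Ltbp3, a TGF-beta binding protein, and -0.69 for Ehbp1l1.

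Oligodendrocytes were compared with their precursors to follow Neat1 along a lineage. Of 10 members 1 was called, against 25.4% of all genes in either direction and 11.8% in the higher direction. This was Neat1, at 0.00800%, 0.00690%, 0.0137% and 0.00844% in OPC, higher in oligodendrocytes by 3.04 ± 0.29 (log2, SE; adjusted p = 2.46e-12, edgeR quasi-likelihood). The ranges of the 2 classes over libraries did not overlap. The members' median was -0.23 against 0.02 over all genes. Malat1 differed by 0.30 ± 0.28 (adjusted p = 0.511, edgeR), and Gm26917 by -0.53 ± 0.22 (adjusted p = 0.0721, edgeR). Without KI replicate 2, whose oligodendrocytes had the low marker content, Neat1 was again the sole call. Proteins of paraspeckles, for which Neat1 is the scaffold, did not differ in common. Of 12 tested between neurons and other classes, 3 were higher in neurons, such as Cpsf6 by 0.20 and Pspc1 by 0.19, and 2 lower (log2 differences of -0.44 for Hnrnpk and -0.19 for Matr3). Of 14 proteins of nuclear speckles, where Malat1 resides, 9 were higher in neurons, such as Luc7l2 by 0.42, and 4 lower, such as Srsf3 with -0.49 and Son with -0.43. Both counts stand against the 31.6% of all genes called higher and 19.8% called lower, a balance that library totals turned to more lower than higher genes.

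Malat1 itself did not pass in the comparison of neurons with other classes, with a log2 difference of 0.24 ± 0.12 and an adjusted p of 0.0831 by the edgeR quasi-likelihood test. Its sign depended on the scaling, at -0.14 with library totals and 0.07 with size factors.

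**Figure D3:**
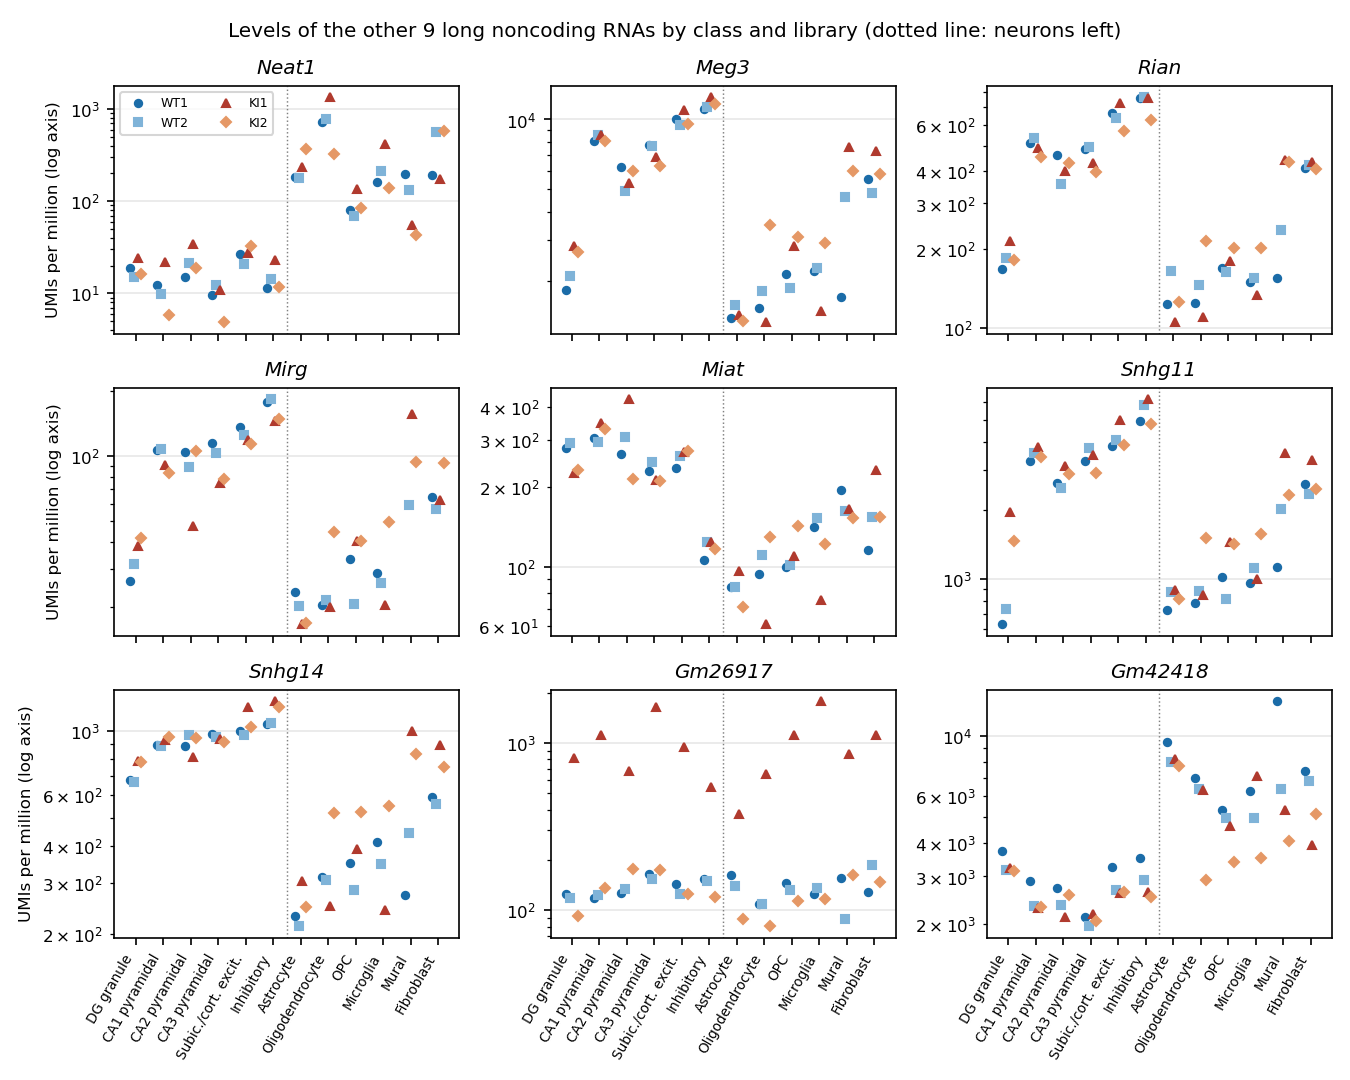
Levels of the 9 other members in CPM (vertical axis, log scale) in the 12 classes, with a point per library and neuronal classes left of the dotted line. Meg3, Rian, Mirg and Snhg11 are low in DG granule neurons compared with other neurons, Neat1 is highest in oligodendrocytes, and KI replicate 1 stands apart for Gm26917 in every class.

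Within excitatory neurons, DG granule neurons were compared with CA1 and CA3 pyramidal neurons. Of the 10 members 6 were lower and 1 higher in granule neurons, where 16.4% of all genes were called lower and 16.5% higher, and the members' median was -0.52 against 0.03 over all genes. Scaled by totals, 3416 genes were higher and 1976 lower in place of 2481 and 2462, with a median of 0.13. The log2 difference was -1.84 ± 0.26 for Meg3, -1.72 ± 0.22 for Snhg11, -1.61 ± 0.19 for Mirg and -1.44 ± 0.16 for Rian (SE), with adjusted p from 2.31e-10 to 9.26e-08 in edgeR's quasi-likelihood test. Gm26917 (-0.57 ± 0.19), Snhg14 (-0.46 ± 0.18) and, in the higher direction, Gm42418 (0.45 ± 0.16) also passed (adjusted p = 0.0155, 0.0429 and 0.0237, edgeR), and each lost the call under a stricter gate. Without KI replicate 2, Meg3, Snhg11, Rian and Mirg alone were called. Of the Dlk1-Dio3 genes Rtl1 (-1.76) and Begain (-0.53) were lower in granule neurons, and of the Snrpn locus Snrpn (-0.60) and Ube3a (-0.57) were lower and Ndn (0.70) higher. Rtl1, which is expressed from the paternal copy of the cluster, thus had a difference of the same sign as Meg3.

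Inhibitory neurons had more than the mean of DG granule, CA1 and CA3 neurons of 4 members and less of 1. Mirg was higher by 1.16 ± 0.14, Snhg11 by 1.06 ± 0.18, Meg3 by 1.04 ± 0.21 and Rian by 0.94 ± 0.13, while Miat had a difference of -1.29 ± 0.15 (log2, SE). All 5 had an adjusted p of 5.96e-05 or smaller in edgeR's quasi-likelihood test. Of all genes, 21.5% were called higher and 19.2% lower, and the members' median was 0.18 against 0.03. By totals, 4386 were higher and 2187 lower in place of 3219 and 2876, with a median of 0.15. Snhg14 differed by 0.30 and Malat1 by -0.19, neither of which passed. Snhg14 did pass with library totals (0.42, adjusted p = 0.0122, edgeR), with size factors (0.37, adjusted p = 0.0488, edgeR) and with DESeq2 (0.37, adjusted p = 0.0456). Snrpn, Ube3a and Ndn were all called higher in inhibitory neurons, as was Rtl1 by 1.19.

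**Figure D4:**
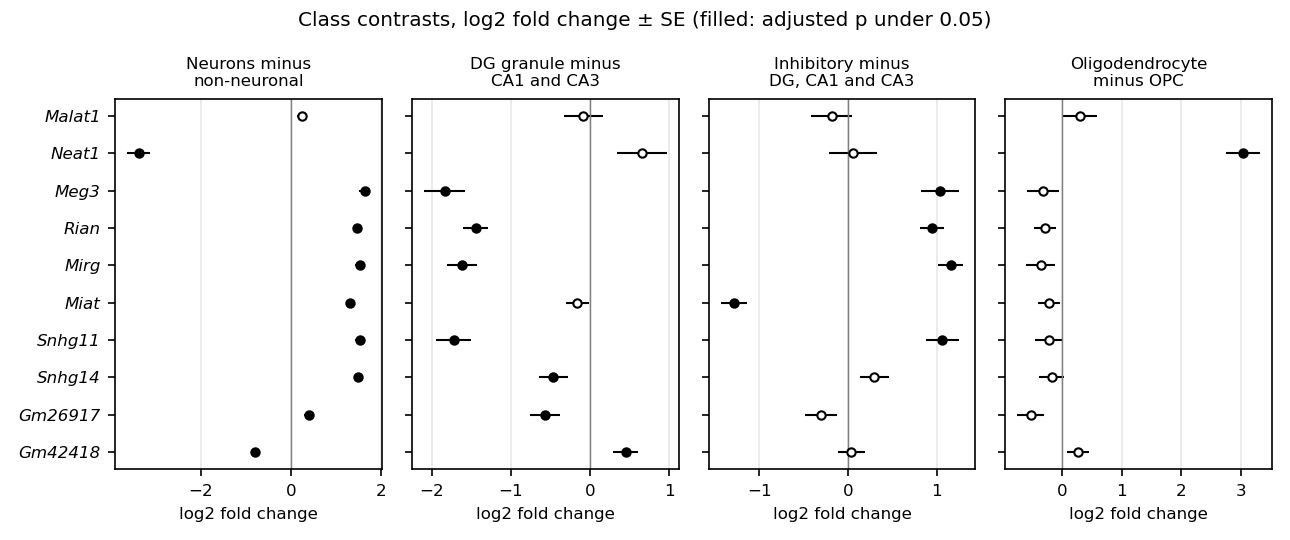
Log2 fold changes of the 10 members (horizontal axis, bars are SE) in the 4 comparisons between classes, with filled points at an adjusted p under 0.05. Neat1 lies at -3.38 in neurons and 3.04 in oligodendrocytes against precursors, and Meg3, Snhg11, Mirg and Rian lie between -1.84 and -1.44 in DG granule neurons against CA1 and CA3.

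Over the means of the 12 classes, Meg3 correlated with Snhg11 at r = 0.996, with Rian at 0.995 and with Mirg at 0.958 (Pearson, log2 CPM). These values describe 12 points from the same 4 libraries, split by the gate into neurons and other cells. Among 13640 genes that are neither members nor markers, the one most like Meg3, Rian, Mirg and Snhg11 was in each case B830012L14Rik, at r of 0.993, 0.990, 0.970 and 0.984. It is a noncoding RNA at chr12:109695586-109702587 on the plus strand, between Rian and Mirg. The second was in each case A230006K03Rik (chr7:61127996-61311721, minus strand), at r of 0.986, 0.985, 0.965 and 0.977. For Snhg14 the most alike were Mecr (0.982) and Srrm4os (0.975), and for Miat Phf24 and Sidt1 (both 0.964). H2afj (0.969) and Gng11 (0.966) were most like Neat1, and Tmem30a and Rpl11 (both 0.991) most like Gm42418. Malat1 had its closest partners at no more than 0.733 (5031425E22Rik) and 0.723 (Akap11), and its correlations with other members ranged from -0.407 to 0.381. For Gm26917, Pck2 was at 0.815, a value that rests on class means that 1 library sets.

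Gm42418 was lower in neurons, with a log2 difference of -0.79 ± 0.08 (SE; adjusted p = 2.02e-12, edgeR quasi-likelihood) that was -0.89 without KI replicate 2. Astrocytes had 0.948%, 0.798%, 0.822% and 0.776% of UMIs and CA3 pyramidal neurons 0.213%, 0.196%, 0.217% and 0.204%, with no overlap. The partly overlapping AY036118 was lower in neurons as well (-0.43), and Gm42418 UMIs outnumbered those of AY036118 by 15.4, 13, 14.2 and 15.2 times over all nuclei. Genes that come with cytoplasmic RNA in nuclear preparations moved in the same direction, as 73 of 78 tested ribosomal protein genes and 12 of 13 mitochondrial mRNAs were lower in neurons. Their part in the difference of Gm42418 was not tested. In KI replicate 2 the oligodendrocytes had 0.290% Gm42418 against 0.696%, 0.635% and 0.628% in the others.

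Gm26917, on the same strand and just upstream of Gm42418, did not share its pattern. KI replicate 1 had more than the WT mean in all 12 classes, from 2.49 times in astrocytes to 13.6 times in microglia, while KI replicate 2 had 0.591 to 1.36 times the WT mean. In CA3 pyramidal neurons the shares were 0.0166%, 0.0154%, 0.163% and 0.0174%, in microglia 0.0125%, 0.0136%, 0.177% and 0.0117%. The excess of counts in KI replicate 1 was thus found in neuronal and glial classes and was not shared by the other KI mouse. A Gm26917 UMI was present in 82.7% of nuclei of KI replicate 1 against 40.2%, 42.2% and 41.5% in the other libraries. At 1000 UMIs per nucleus, with 2.43% to 4.11% of nuclei left out, the shares of nuclei were 54.3% against 12.0%, 11.6% and 10.7%. Free RNA of a library reaches nuclei of every class, and its part in these shares was not tested. The number of Gm42418 UMIs for each Gm26917 UMI fell to 2.83 in that library from 27.1, 23.8 and 21.1 in the others. The higher level of Gm26917 in neurons (0.39 ± 0.10, log2, SE; adjusted p = 0.0010, edgeR quasi-likelihood) was 0.04 with library totals and -0.22 after thinning to equal depth, so its direction is not settled.

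**Figure D5:**
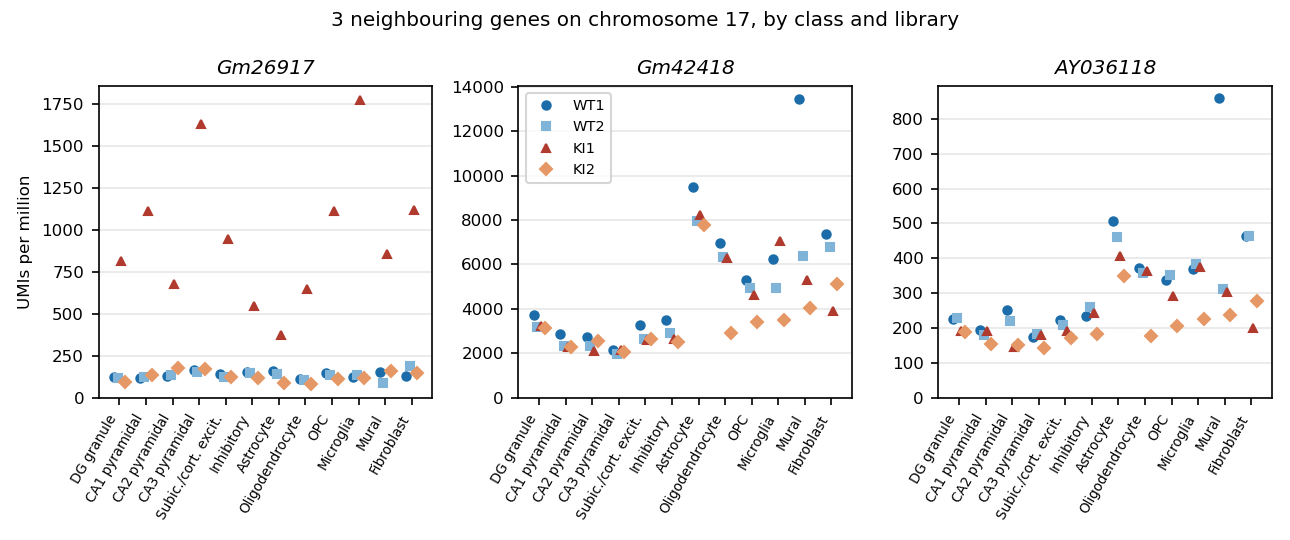
CPM (vertical axis, linear scale) of the neighbouring genes Gm26917, Gm42418 and AY036118 by class and library. KI replicate 1 is above the other libraries for Gm26917 in every class, by 2.49 to 13.6 times the WT mean, and not for Gm42418 or AY036118.

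Between genotypes over all nuclei, 0 of the 9 members other than Malat1 passed the same threshold in edgeR, against 0.889% of 21718 genes. DESeq2 also called 0 of them. An unadjusted p under 0.05 was reached by 4 of the 9 members and by 24.3% of all genes. Snhg14 had 0.0788%, 0.0798%, 0.0873% and 0.0883%, and Meg3 0.604%, 0.658%, 0.731% and 0.708%, so that the genotypes did not overlap in either. Such separation over all nuclei was found for 3 of the 9 members, 3 above and 0 below WT, and for 61.1% of all genes, 26.7% above and 34.3% below. The make-up of the libraries differed as well, since DG granule nuclei, which are low in Meg3, numbered 1033, 827, 350 and 361, and subicular or cortical excitatory nuclei, which are high in it, 330, 701, 597 and 1073. The part of this make-up in the values over all nuclei was not tested. Their log2 differences (KI over WT) were 0.20 ± 0.07 and 0.24 ± 0.08 (SE), with adjusted p of 0.181 and 0.161 by edgeR. Snhg11 (0.254%, 0.298%, 0.364% and 0.308%) differed by 0.34 ± 0.13 and Gm26917 by 2.28 ± 0.90, with adjusted p of 0.190 and 0.198 by edgeR. The Gm26917 value rests on KI replicate 1, without which it was -0.05. Rian (0.0409%, 0.0435%, 0.0444% and 0.0406%), Mirg (0.00855%, 0.00905%, 0.00827% and 0.00869%) and Miat (0.0238%, 0.0261%, 0.0255% and 0.0244%) overlapped between genotypes. The members' median was 0.20 against 0.01 over all genes. Without KI replicate 2, Snhg11, Gm26917 and Neat1 were called.

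By class, 2 of the members' tests passed, both in DG granule neurons. There 8.81% of 12810 genes were called in either direction and 4.53% as higher in KI, and the members' median was 0.40 against 0.01. Snhg11, at 0.0630%, 0.0739%, 0.196% and 0.146%, was higher in KI by 1.47 ± 0.15 (log2, SE; adjusted p = 0.000389, edgeR quasi-likelihood). The 2 KI values lay well above both WT values. Meg3, at 0.183%, 0.211%, 0.285% and 0.267%, was higher by 0.62 ± 0.10 (adjusted p = 0.00438, edgeR), again with no overlap. Leaving out each library in turn gave 1.19 to 1.70 for Snhg11, which passed each time. For Meg3 it gave 0.52 to 0.72, and without WT replicate 1 Meg3 did not pass (0.52, adjusted p = 0.0895 by edgeR). In this class scaling by totals gave 450 genes higher and 930 lower in place of 580 and 548 and moved the median to -0.13, with Snhg11 at 1.32 and Meg3 at 0.49.

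Per nucleus, the median Snhg11 share of granule neurons was 0.0549%, 0.0656%, 0.190% and 0.133%. At 1000 UMIs per nucleus, with at most 0.29% of nuclei left out, 45.1%, 49.5%, 80.3% and 71.1% of granule neurons had a Snhg11 UMI. The KI value of Snhg11 remained under that of CA1 pyramidal neurons in every library. Snhg14 (0.36 ± 0.10, adjusted p = 0.0539), Mirg (0.60 ± 0.19, 0.0740) and Gm26917 (2.06 ± 0.66, 0.0820) did not pass by edgeR, and Gm26917 was at -0.31 without KI replicate 1. Miat, at 0.0281%, 0.0292%, 0.0226% and 0.0231%, had shares below both WT libraries in both KI libraries and a log2 difference of -0.19 ± 0.12 that did not pass.

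Separation of the 2 KI from the 2 WT shares was common among all genes. In DG granule neurons it held for 5 of 9 members and 56.9% of genes, in CA1 for 6 of 9 and 50.2%, in CA3 for 6 of 9 and 50.6%, and in inhibitory neurons for 5 of 9 and 52.6%. By direction, 4 members lay above and 1 below WT in DG granule neurons, where 18.4% of genes lay above and 38.5% below. In CA1 there were 3 above and 3 below (20.5% and 29.7% of genes), in CA3 1 and 5 (16.1% and 34.5%) and in inhibitory neurons 2 and 3 (17.2% and 35.4%).

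The granule neurons of the KI libraries also differed in marker content and number. There were 1033, 827, 350 and 361 of them, with 1870, 1831, 1667 and 1702 CPM of their own gate markers and 336, 356, 293 and 396 CPM of check markers. Summed OPC gate markers were 32.6, 43.7, 178 and 137 CPM, most of it Lhfpl3 (19.0, 28.7, 161 and 120 CPM), while the defining precursor genes Pdgfra and Cspg4 were at no more than 7.5 and 3.1 CPM. Inhibitory check markers, which mark the class with the most Snhg11 and Meg3, were at 4.85, 3.31, 0 and 4.48 CPM. Check markers of mossy cells, which had 0.339%, 0.467%, 0.468% and 0.338% Snhg11 in 46 nuclei, were at 63.0, 69.1, 130 and 92.3 CPM. These markers are Calb2 and Sv2c, at 7.25 and 0.237 times the level over all nuclei in the mossy nuclei themselves. The median mossy nucleus held 2.75 of its own gate markers per 10000 UMIs against 31.9 of other classes. The summed check markers are therefore no clear measure of mossy cells. Check markers of CA2 were at 58.2, 60.5, 10.2 and 24.6 CPM. The part of mossy or other cells in the Snhg11 and Meg3 differences was not tested, and under a gate that required 1 more marker the differences were 1.62 and 0.67.

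In the other classes 0 of the members tested passed in edgeR's quasi-likelihood test. The share of genes called was 2.56% in CA1, 1.6% in CA3, 1.28% in inhibitory neurons, 0.99% in mural cells, 0.332% in OPC and 0.209% in astrocytes. It was 0% in CA2, subicular or cortical excitatory neurons, oligodendrocytes, microglia and fibroblasts, where 389, 1524, 1169, 577 and 343 genes had an unadjusted p under 0.05 and DESeq2 called 0, 45, 38, 3 and 2 genes. The number of members with an unadjusted p under 0.05 was 7 of 9 in OPC (11.3% of all genes), 6 of 8 in mural cells (16.2%), 3 of 9 in inhibitory neurons (17.4%), 2 each in CA2 (7.87%) and CA3 (17.5%), 1 each in CA1, subicular or cortical excitatory neurons, astrocytes, microglia and fibroblasts, and 0 in oligodendrocytes. In those with 1 or 0, between 5.44% and 19.1% of all genes reached it. The calls rest on the full set of libraries, since leaving out a single library gave 7 to 33 member calls over the 12 classes in place of 2, with 7 without WT replicate 1, 11 without WT replicate 2, 22 without KI replicate 1 and 33 without KI replicate 2. OPC came closest, with Snhg11 at 0.102%, 0.0812%, 0.146% and 0.143% (0.77 ± 0.17, adjusted p = 0.0814 by edgeR) and Meg3 at 0.69 ± 0.16 (0.102). The check markers of OPC in these nuclei were at 821, 917, 652 and 511 CPM, and a part of other cells in these values was not tested. Mural check markers likewise were at 4019, 1881, 1150 and 1071 CPM, beside Meg3 shares of 0.172%, 0.463%, 0.762% and 0.598%. In astrocytes Neat1 differed by 0.80 ± 0.21 with an adjusted p of 0.149 by edgeR, and its KI shares lay above both WT shares.

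Whether the genotype difference itself differed between neurons and other classes was tested in the same model. Of the 9 members 0 passed in edgeR, against 0.128% of 16414 genes, and 3 had an unadjusted p under 0.05, as had 9.20% of all genes. DESeq2 called 0 as well. The 3 were Mirg (-0.78 ± 0.23, adjusted p = 0.205), Snhg14 (-0.47 ± 0.16, 0.301) and Rian (-0.36 ± 0.15, 0.403), each with a smaller KI over WT ratio in neurons. Without KI replicate 1, 6 members passed (Snhg11, Snhg14, Meg3, Rian, Mirg and Gm42418). In that fit KI is represented by KI replicate 2, whose oligodendrocytes had the low marker content. The members' median was -0.25 against -0.13 over all genes.

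Of the gene lists fixed around the members, all 11 had 0 genes called between genotypes over all nuclei by edgeR. Within DG granule neurons Ltbp3, a neighbour of Neat1, was higher in KI by 1.76 (adjusted p = 0.0382 by edgeR). Among 20 other long noncoding RNAs tested in granule neurons, where 8.81% of all genes were called, Oip5os1 (0.77) and C130073E24Rik (0.67) were higher and Ftx, a regulator of Xist, was lower (-0.56). Of the same 20, A330008L17Rik (1.1) and Sox2ot (1.21) were higher in KI CA1 neurons, where 2.56% of genes were called, and A330008L17Rik (1.49) and Rmst (2.57) in CA3, where 1.6% were. In KI mural cells, where 0.99% of genes were called, A330008L17Rik (3.69) was higher among 6 of these RNAs tested. In KI astrocytes, where 0.209% of genes were called, 3 of 13 mitochondrial mRNAs were higher. They were mt-Atp6 (1.31), mt-Cytb (1.30) and mt-Co2 (1.05). Snrpn was higher by 0.64 in KI inhibitory neurons, with an adjusted p of 0.0495 by edgeR. Between neurons and other classes 6 of these 20 RNAs were higher, such as A330008L17Rik by 1.72, and 5 lower, such as Sox2ot with -1.34. Of all genes 31.6% were higher and 19.8% lower there, and the median log2 difference of these RNAs was 0.08 against 0.09 over all genes.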

How the data were processed

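Nuclei of the hippocampus of 2 WT and 2 KI mice were profiled by the authors with droplet capture and sequencing of 3′ ends, and groups and replicate numbers were taken from the sample titles. All libraries carry the same batch label. The authors deposited raw UMI counts per gene and barcode, which the labels and submitters' notes trace to Cell Ranger 7.0.1 and build mm10. The study removed doublets in its own analysis. It reports fewer nuclei retained after quality control and doublet removal than the 55640 barcodes deposited. Whether introns were counted, and whether the deposited barcodes precede that removal, is not stated in the sources used here.

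Barcodes with under 500 genes or at least 5% mitochondrial UMIs were dropped (345), as were 3263 with a Scrublet score over 0.25 at an expected doublet rate of 0.08 (scanpy 1.11.5). Of the distinct barcode sequences, 313 (0.566%) occurred in more than 1 library. A marker was taken as raised in a nucleus when its count had a Poisson p under 0.05 given the nucleus' depth. A nucleus joined the class with the largest share of its gate markers raised, if at least 2 were raised (758 ties stayed out). The classes differ in their number of gate markers, so 2 raised markers weigh more in a class with fewer. The 80 gate markers of 17 classes and the check markers were listed before the files were opened, while this scoring rule and the doublet limit were chosen after seeing the data. The members and all lists were chosen with earlier results of these data known. The named genes were all members, the 2 genes most alike each in log2(CPM + 1) over class means among genes with at least 10 CPM in a class, and up to 3 list genes per direction past the threshold. Of the genes so named, 2 are not reported here.

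UMI counts were summed per library, or per library and class, and fitted over all genes with edgeR 4.0.16 (R 4.3.3; filterByExpr, TMM, glmQLFit and glmQLFTest, Benjamini-Hochberg, threshold 0.05). Genotype was the only term between genotypes, and library was a block between classes. The study's methods tested single nuclei, which share a mouse, so sums were used in their place. DESeq2 1.42.0, other scalings, filters and gates, thinned sums, a replicate block and leaving out libraries were the alternatives. Scripts were tested on simulated counts. Same-numbered libraries had deviations correlated at 0.0805 over 9765 genes, and nothing in the labels pairs them. Replicates are separate mice, so p-values rest on the spread of 2 mice per genotype, and thinned shares cover counting error only. Gene positions came from GENCODE M21, in which 32235 of the 32285 gene IDs were found. Python 3.11.15, numpy 2.4.6, scipy 1.17.1, pandas 2.3.3 and matplotlib 3.10.9 were used.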

Additional observations from a re-analysis of the deposited data

Results flagged for a closer look

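For 4 members the KI libraries did not overlap with the WT libraries in several neuronal classes, but lay above WT in some of these and below WT in others. The difference between classes was not tested. Separation of 2 KI from 2 WT shares was found for 50.2% to 56.9% of all genes in DG granule, CA1, CA3 and inhibitory neurons, so it is a frequent pattern. It was not counted over all genes in subicular or cortical excitatory neurons. Ratios are given for pairs of classes on opposite sides. In addition, Snhg14 lay above WT in CA1 and in subicular or cortical excitatory neurons, Miat above WT in the latter and below WT in CA3, and Mirg below WT in subicular or cortical excitatory neurons. The ratios of KI to WT mean shares were for Meg3 1.40 in DG granule and 1.08 in inhibitory neurons, and 0.853 in CA3 pyramidal neurons. For Mirg, which is transcribed downstream of Meg3, they were 1.38 in DG granule neurons against 0.813 in CA1, 0.702 in CA3 and 0.816 in inhibitory neurons. Snhg14 had 1.16 in DG granule neurons and 1.16 in inhibitory neurons but 0.962 in CA3, where the sign of its fitted difference turned with the scaling (0.06 with TMM and -0.06 with library totals). Miat went the other way, with 0.797 in DG granule neurons and 1.13 in CA1. Meg3 in DG granule neurons is the only one of these 12 values that passed the edgeR test within its class. The larger Malat1 share of the KI libraries lowers every other share, so that ratios of shares under 1 are to be read beside it.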

How the results depend on the processing

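When a library was left out, the one left alone in its group was assumed to vary like those of the other group. Calls between genotypes over all nuclei ranged from 0 to 3, and the 3 (Snhg11, Gm26917 and Neat1) came without KI replicate 2. Over the 12 classes they ranged from 7 to 33 in place of 2, with 7 without WT replicate 1, 11 without WT replicate 2, 22 without KI replicate 1 and 33 without KI replicate 2. Calls of the interaction ranged from 0 to 6, with 6 without KI replicate 1, and those of DG granule against CA1 and CA3 neurons from 4 to 7, with 4 without KI replicate 2. The other comparisons of classes had 9, 5 and 1 calls without each library. With no filter on low counts, 15 calls by class were made, 10 of them for Gm26917, and Mirg was the 1 call of the interaction. DG granule against CA1 and CA3 neurons gave 4 calls with a stricter gate and 4 with thinned sums. Oligodendrocytes against OPC gave 2 calls with DESeq2 and 2 with thinned sums, where Malat1 joined Neat1, and 2 with no filter and 2 in WT libraries alone, where Gm26917 did. Gm26917 in neurons turned to -0.22 with thinned sums. The difference in Malat1 share stayed between 3.35 and 4.86 percentage points without each library, and between 3.87 and 4.15 under the other choices. The cause of these changes was not tested. Of the other values, 83 summaries were taken as unchanged. For a number of calls this meant within 1.5 times of that reported, and for the Malat1 difference a move smaller than the SD over libraries. The calls behind an unchanged number could thus differ. Among single-gene values 292 kept their direction and side of the threshold, and 16 lost the call.

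With the replicate number as a block, 4 member calls were made by class, Gm26917 in DG granule and CA1 neurons being added to Snhg11 and Meg3, and 0 over all nuclei. The numbers pair nothing in the labels, and the block changed no other member call between genotypes. Genes called over all nuclei numbered 193, and 1829 with DESeq2, 710 with no filter, 1955 with the block, 127 without WT replicate 1, 1090 without KI replicate 1 and 7196 without KI replicate 2. In DG granule neurons they numbered 1128, and 617 with DESeq2, 1897 with no filter, 235 with the stricter gate, 493 without WT replicate 1, 506 without WT replicate 2, and 3514 without KI replicate 2. For the interaction 21 became 9 with totals, 10 with size factors, 68 with DESeq2, 113 with no filter, 7 at 1000 genes per nucleus, 3 with the stricter gate, 2 without WT replicate 1, 0 without WT replicate 2, 396 without KI replicate 1 and 48 without KI replicate 2. The stricter gate took DG granule against CA neurons from 4943 to 1964 and inhibitory against excitatory from 6095 to 3917. A separate fit of thinned sums, with 830 genes tested in place of 15002, called 255 and 286 there, 542 for neurons and 232 for oligodendrocytes, where the full sums called 7707 and 3810. With 2 libraries per genotype and classes as small as 20 nuclei in a library, small differences may have gone undetected.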
